A study of Mus musculus with 8 samples.

Results

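The genes described here are 35 genes typical of macrophages and other antigen-presenting cells, picked by name from the 45232 genes of a table of RNA levels in sorted T cells. They were grouped by role into C1q chains, lysozyme and lysosomal genes, surface receptors, Fc receptors with their signalling adaptors, receptors of tissue-resident macrophages, secreted products, and MHC class II genes. The cells were CD4+ CD25+ T cells, a phenotype that enriches for regulatory T cells (Tregs), sorted from visceral adipose tissue or spleen of C57BL/6 mice. The mice were wild-type (WT) or carried the genotype labelled Id2 CKO, a conditional knockout (KO) of Id2, which encodes an inhibitor of DNA-binding E proteins. The driver of the knockout, the deleted part of the gene, and the age and sex of the mice were not given in the sources used here. Each of the 4 groups (WT adipose, KO adipose, WT spleen, KO spleen) held 2 libraries, numbered 2 and 3 and called experiments in the table's header. At least 500 cells were sorted per library per the labels, and cDNA was made with an ultra-low-input kit. The labels do not tell whether a group's libraries stem from different mice. All p-values therefore reflect library-to-library spread, which may be technical. Levels are in TPM, a share of the transcripts of a library after correction for gene length.

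Several libraries stood apart. Id2 was at 2249 and 3679 TPM in WT adipose 2 and 3 and at 1499 and 1298 TPM in KO adipose 2 and 3, and the spleen levels were 274 and 346 TPM in WT and 72.1 and 265 TPM in KO. Where the deletion lies is not known here, so this level does not check the genotype. Foxp3, the transcription factor that defines Tregs, stood at 93.5 to 266 TPM in 6 libraries, with 98.4 TPM in KO adipose 3. The exceptions were KO adipose 2 with 7.4 TPM and KO spleen 2 with 8.27 TPM. Markers of T cells summed to between 7298 and 9845 TPM in 7 libraries and to 3628 TPM in KO adipose 3. KO adipose 3 also listed the most genes above 0, with 20684 against 13184 to 16822 in the others. Results are therefore given for each adipose library apart.

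Macrophages engulf dying cells, microbes and debris, digest them in lysosomes and present peptides to CD4+ T cells on MHC class II molecules. They are a main source of C1q, and their Fc receptors take up antibody-coated particles. Visceral adipose tissue holds many resident macrophages, and the spleen holds macrophages of the red pulp and the marginal zone together with many B cells, which also carry MHC class II. T cells of the mouse are not known to make C1q, lysozyme or MHC class II in quantity, whereas some of the 35 genes, such as Ctss and Fcer1g, are also expressed by other lymphocytes.

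The control regions of a few of these genes are shown for C1q and MHC class II, whose levels did not keep 1 ratio across the libraries. PU.1, a transcription factor needed for macrophage development, binds sites with the core GAGGAA, and the Y box with the letters CTGATTGG is bound by the factor NF-Y in class II promoters. Promoter windows from RefSeq (GRCm38.p6, 250 bases before to 50 after the start) were found for 25 of the 35 genes, with 30 windows in all. On either strand, GAGGAA was in 16 of these 30 windows and in 28.3% of all 32851 windows of that length. CTGATTGG was in 2 of the 30, those of H2-Aa and H2-Eb1, and in 4.1% of all windows. No match was counted for C1qa with GAGGAA, or for H2-Ab1 and Cd74 with CTGATTGG. Whether those genes lacked the letters or a window is not given here. The motifs were searched separately, so an overlap would count for both. In the following 4 windows the match is in capitals, each read 5′ to 3′ on the strand of the gene, and TTCCTC is GAGGAA on the other strand.
C1qb, chr4:136886151-136886450, minus strand: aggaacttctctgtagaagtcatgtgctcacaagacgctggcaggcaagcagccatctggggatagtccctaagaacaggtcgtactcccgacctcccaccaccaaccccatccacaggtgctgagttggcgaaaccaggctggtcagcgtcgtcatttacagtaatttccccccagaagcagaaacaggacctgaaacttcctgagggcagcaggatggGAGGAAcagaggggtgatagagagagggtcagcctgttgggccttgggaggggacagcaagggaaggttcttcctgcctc
C1qc, chr4:136892865-136893164, minus strand: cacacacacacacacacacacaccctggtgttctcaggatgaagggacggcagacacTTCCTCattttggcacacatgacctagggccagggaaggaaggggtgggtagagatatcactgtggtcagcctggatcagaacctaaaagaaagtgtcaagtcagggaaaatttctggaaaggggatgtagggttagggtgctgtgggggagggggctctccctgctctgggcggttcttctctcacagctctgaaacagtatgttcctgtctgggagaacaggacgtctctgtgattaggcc
H2-Aa, chr17:34287774-34288073, minus strand: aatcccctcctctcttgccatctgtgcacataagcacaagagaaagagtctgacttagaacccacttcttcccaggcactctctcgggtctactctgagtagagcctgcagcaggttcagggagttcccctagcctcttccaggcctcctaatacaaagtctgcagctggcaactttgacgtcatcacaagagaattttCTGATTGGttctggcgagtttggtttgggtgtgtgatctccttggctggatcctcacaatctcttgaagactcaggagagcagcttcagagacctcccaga
H2-Eb1, chr17:34305617-34305916, plus strand: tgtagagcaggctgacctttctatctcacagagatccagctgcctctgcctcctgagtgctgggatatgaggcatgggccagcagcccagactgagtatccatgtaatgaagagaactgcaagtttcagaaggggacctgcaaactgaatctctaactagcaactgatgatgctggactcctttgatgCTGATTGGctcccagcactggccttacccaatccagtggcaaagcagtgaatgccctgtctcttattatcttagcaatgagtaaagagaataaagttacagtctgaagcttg
The match began 30 bases upstream of the start in C1qb, 193 in C1qc, 51 in H2-Aa and 62 in H2-Eb1. A match describes the letters of the window and not a bound site. The RNA levels below do not test it.

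Summed over the 35 genes, the level was 505 TPM in WT adipose 2, 429.6 TPM in WT adipose 3, 392 TPM in KO adipose 2 and as much as 45536 TPM in KO adipose 3. In spleen the sums were 4097 and 1889 TPM in WT 2 and 3 and 1580 and 1259 TPM in KO 2 and 3. Thus 4.55% of all transcripts in KO adipose 3 came from these genes, 11.1 times the highest sum of the other 7 libraries. The other adipose library of the same genotype had the lowest sum of the 8. Of the 35 genes, 33 were at their highest in KO adipose 3, the 2 exceptions being Ctss and Gpnmb. Among the 31 that passed the filter for testing (at least 1 TPM in at least 2 libraries) these were 29, beside 17.2% of all tested genes. With 1 TPM added to each value, 25 of the 31 tested were at least 10-fold above the highest of the other 3 adipose libraries in KO adipose 3, beside 1.45% of all tested genes. In KO adipose 2, by contrast, 15 of the 35 were listed at 0. Of the 31 tested, 11 were above both WT adipose libraries there (20.4% of all tested genes) and 9 below both (51.9%). Trem2 and Ccl9, among the 11, passed the filter through the KO adipose group alone. Fcgr1, Cd163 and Timd4 reached 1 TPM in KO adipose 3 and in 1 spleen library each, so they passed the filter only with KO adipose 3. Their place in the 29 and in the 25 is no separate result.

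**Figure D1:**
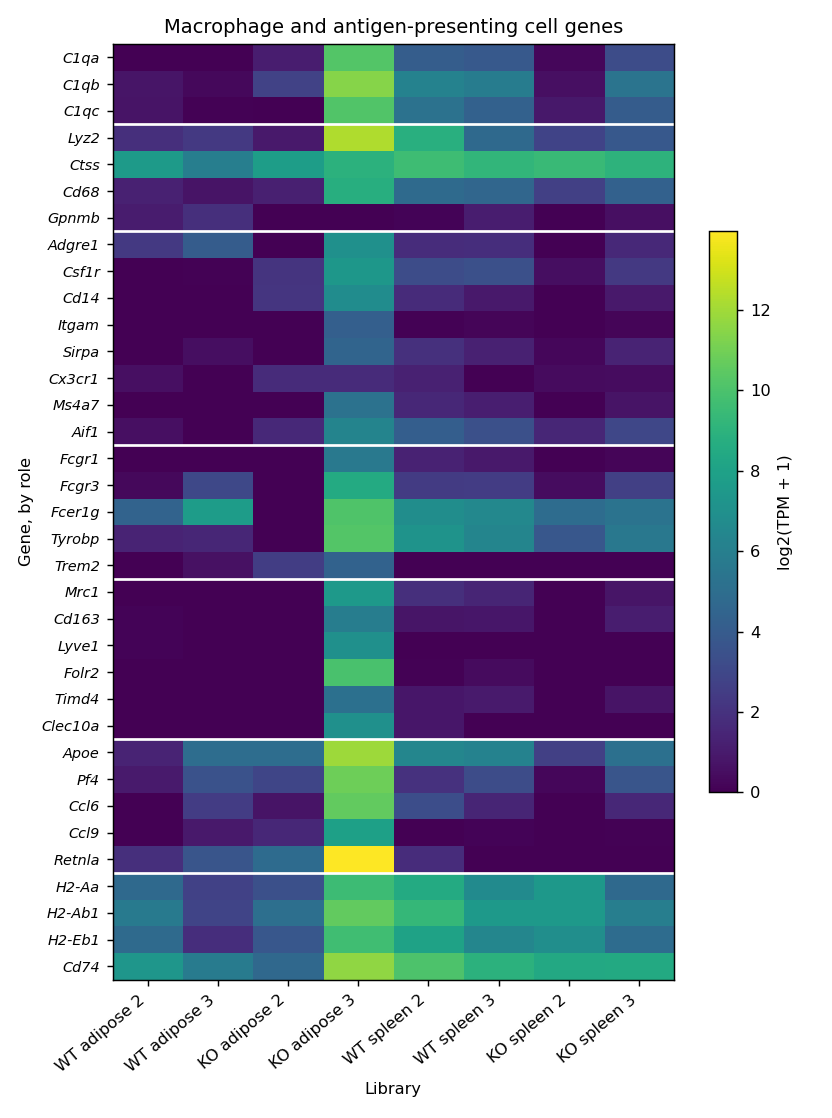
Level of each of the 35 genes (rows, by role) in each of the 8 libraries (columns), coloured by log2(TPM + 1). Yellow and green mark high levels. KO adipose 3 is the highest library for 33 of the 35 genes, and 15 of them are listed at 0 in KO adipose 2.

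**Figure D2:**
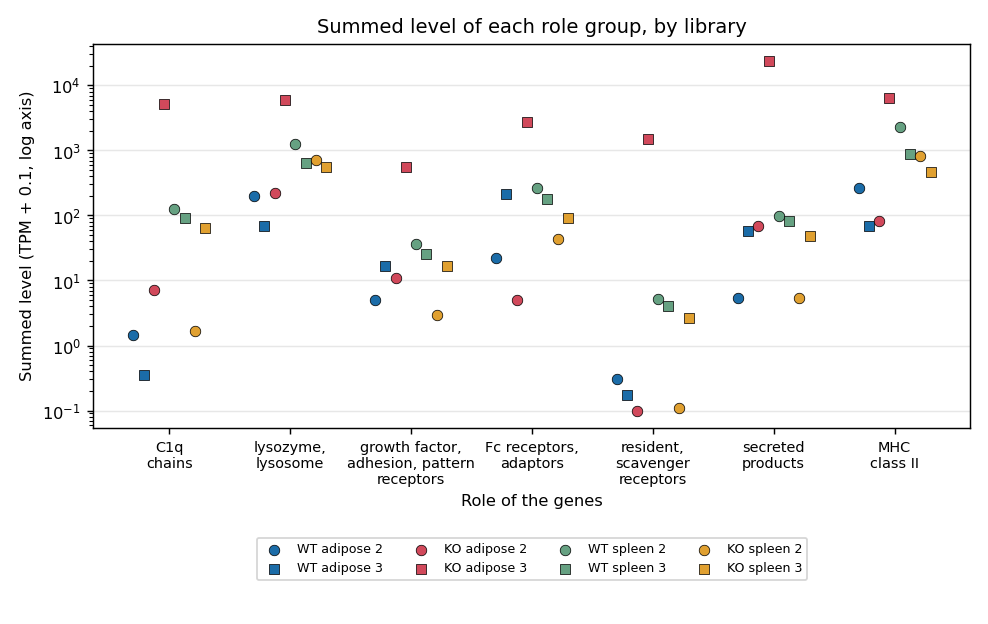
Summed level of each role group (TPM + 0.1, log axis) in each library, 1 point per library and 2 libraries per group. KO adipose 3 lies above the other 7 libraries in all role groups, from 554.5 TPM for the surface receptors to 23394 TPM for the secreted products.

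The C1q chains, which together form the recognition part of the complement component C1, were near 0 in 3 of the 4 adipose libraries. In this and the following paragraphs, values run in the order WT 2, WT 3, KO 2 and KO 3. C1qb was at 0.699, 0.214, 5.78 and 2781 TPM in adipose tissue and at 72.3, 57.3, 0.497 and 39.8 TPM in spleen. C1qa was at 0, 0, 1.16 and 1194 TPM in adipose tissue and at 16.5, 14.1, 0.195 and 8.65 TPM in spleen. C1qc was at 0.657, 0.0403, 0 and 1142 TPM in adipose tissue and at 36.9, 18.8, 0.876 and 15.5 TPM in spleen. All 3 chains were thus high in KO adipose 3, intermediate in 3 spleen libraries and low in KO spleen 2, and for C1qa and C1qb both KO adipose libraries lay above both WT ones. The C1qa level was 0.429 times that of C1qb in KO adipose 3, and 0.228, 0.246 and 0.217 times in WT spleen 2, WT spleen 3 and KO spleen 3. On the log2(TPM + 1) scale used for all fold changes, C1qb differed between KO and WT by 6.58 (SE 2.48) in adipose tissue, with an adjusted p of 0.604 by limma. In spleen the difference was −3.06 (SE 2.48, limma adjusted p of 1), with both KO libraries below both WT libraries.

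Among the lysozyme and lysosomal genes, Lyz2, the lysozyme of macrophages and granulocytes, covered the widest range. It was at 2.7, 4.05, 0.918 and 4982 TPM in adipose tissue and at 443, 26.1, 5.9 and 13.2 TPM in spleen. KO adipose 2 was the lowest of all 8 libraries and KO adipose 3 the highest, so the KO adipose group enclosed both WT libraries. The KO against WT difference of Lyz2 was 4.50 (SE 3.00, limma adjusted p of 0.771) in adipose tissue. Lyz1, a near copy whose reads may be shared with Lyz2, was at 31.2 TPM in KO adipose 3. Cd68, a lysosomal membrane protein of phagocytes, was at 1.45, 0.68, 1.31 and 432 TPM in adipose tissue and at 27.3, 23.6, 5.35 and 19.4 TPM in spleen. KO adipose 3 was again the highest and KO spleen 2 the lowest spleen library, and the other adipose libraries lay below all spleen libraries.

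The other 2 genes of that group behaved differently. Ctss, the protease cathepsin S that trims the invariant chain in class II compartments, was at 196, 61.9, 216 and 497 TPM in adipose tissue and at 802, 587, 708 and 529 TPM in spleen. Every spleen library exceeded every adipose library, and both KO adipose libraries exceeded both WT ones. In WT cells Ctss differed between adipose tissue and spleen by −2.62 (SE 0.59, limma adjusted p of 0.152), and between KO and WT adipose tissue by 1.56 (SE 0.59, adjusted p of 0.609). Gpnmb, a glycoprotein of lipid-laden macrophages, was at 1.09, 2.64, 0 and 0.02 TPM in adipose tissue and at most 1.19 TPM in spleen. It was the 1 tested gene of the set with both KO adipose libraries below both WT ones.

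Of the surface receptors, Adgre1, which encodes the macrophage marker F4/80, was at 3.91, 16, 0 and 127 TPM in adipose tissue and at 2.39, 2.56, 0 and 2.08 TPM in spleen. It was listed at 0 in KO adipose 2 and KO spleen 2, and WT adipose tissue exceeded WT spleen. Its KO against WT difference in adipose tissue was 0.31 (SE 1.89, limma adjusted p of 0.979). With a pseudocount of 0.1 TPM the direction was the opposite, at −1.17. Csf1r, the receptor for the macrophage growth factor CSF1, was at 0, 0.0477, 3.25 and 164 TPM in adipose tissue and at 8.3, 9.71, 0.45 and 3.9 TPM in spleen. Cd14, the co-receptor for bacterial lipopolysaccharide, was at 0, 0, 3.39 and 108 TPM in adipose tissue and at 2.31, 0.961, 0 and 0.941 TPM in spleen. For both genes the KO adipose libraries lay above the WT adipose libraries and the KO spleen libraries below the WT spleen libraries. Cd14 had the smallest p of the receptors in the adipose comparison, with a difference of 4.45 (SE 1.28) and an adjusted p of 0.403 by limma.

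The remaining receptors were lower. Aif1, the actin-binding protein also called Iba1 and grouped with them, was at 0.469, 0, 2.07 and 76.6 TPM in adipose tissue and at 16.9, 9.71, 1.88 and 6.76 TPM in spleen. Sirpa, the inhibitory receptor for CD47, Itgam, the integrin chain CD11b, and Ms4a7, a membrane protein of tissue macrophages, were at 21.7, 17.6 and 37.6 TPM in KO adipose 3. In the other 7 libraries these 3 genes stayed at or below 2.81 TPM. Cx3cr1, the receptor for fractalkine, was the exception, at 0.486, 0.0208, 2.27 and 2.28 TPM in adipose tissue and between 0 and 1.44 TPM in spleen. Its levels in the KO adipose libraries were all but equal and both exceeded WT.

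Fc receptors and their adaptors varied widely between libraries. Fcer1g, the shared signalling chain of Fc receptors, was at 20.4, 207, 0 and 1109.8 TPM in adipose tissue and at 112, 90.3, 29.6 and 38.9 TPM in spleen. Tyrobp, the adaptor DAP12, was at 1.57, 1.79, 0 and 1188 TPM in adipose tissue and at 142, 80.6, 12.8 and 47.1 TPM in spleen. Both were listed at 0 in KO adipose 2 and lower in KO than in WT spleen, but WT adipose 3 held Fcer1g at over 100 times its Tyrobp level. Fcgr1, the high-affinity receptor for IgG, was listed at 0 in 3 adipose libraries, at 49.9 TPM in KO adipose 3 and at no more than 1.52 TPM in spleen. Fcgr3, a low-affinity receptor for IgG, was at 0.243, 7.12, 0 and 365 TPM in adipose tissue and at 4.33, 4.48, 0.37 and 5.35 TPM in spleen. Its near copy Fcgr2b, with which reads may be shared, was at 113 TPM in KO adipose 3.

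Trem2, a lipid-sensing receptor that signals through Tyrobp and marks lipid-associated macrophages, was the gene of the set nearest to the threshold. It was at 0, 0.534, 4.88 and 20.3 TPM in adipose tissue and at 0.0089, 0, 0 and 0 TPM in spleen. Both KO adipose libraries exceeded the other 6 libraries. The difference between KO and WT adipose tissue was 3.17 (SE 0.68, limma adjusted p of 0.17), and between KO adipose tissue and KO spleen 3.48 (SE 0.68, limma adjusted p of 0.0622). The latter passed the threshold of 0.05 with the replicate number as a block (3.48, SE 0.59, limma adjusted p of 0.0463, where 1.42% of all tested genes were called higher) and with quantile normalization (3.51, SE 0.53, limma adjusted p of 0.0247, with 1.29% called higher). Trem2 reached 1 TPM in the KO adipose group alone and passed the filter through it.

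Receptors of resident and scavenging macrophages were almost confined to KO adipose 3. Folr2, the folate receptor beta, was at 979 TPM there, listed at 0 in the other 3 adipose libraries, and at most 0.35 TPM in spleen. Mrc1, the mannose receptor CD206, was at 183 TPM there, listed at 0 in the other 3 adipose libraries and at 2.73, 1.75, 0 and 0.724 TPM in spleen. The hyaluronan receptor Lyve1 was at 128 TPM in KO adipose 3 and at or below 0.0973 TPM in the other 7 libraries. Clec10a, a lectin for galactose residues, Cd163, the scavenger receptor for haemoglobin, and Timd4, a receptor for phosphatidylserine on dying cells, were at 126, 59.5 and 34.2 TPM in KO adipose 3. Outside that library these 3 genes did not exceed 1.15 TPM. The 6 genes summed to 0.21, 0.074, 0 and 1509 TPM in adipose tissue, so a library of the same genotype and tissue listed every one of them at 0. Mrc1 differed by 3.76 (SE 1.93, limma adjusted p of 0.748) between KO and WT adipose tissue. Lyve1, Folr2, Clec10a and Itgam reached 1 TPM in that 1 library alone and were not tested.

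Secreted products reached the highest levels of the set. Retnla, which encodes the secreted protein RELM-alpha of alternatively activated macrophages, was at 2.62, 12, 28.7 and 15927 TPM in adipose tissue and at 2.37, 0, 0 and 0 TPM in spleen. It was the gene of rank 4 among all genes of KO adipose 3 and made up 35% of the sum of the set there. Both KO adipose libraries exceeded both WT adipose libraries, which exceeded all spleen libraries. The difference was 6.65 (SE 2.37, limma adjusted p of 0.58) between KO and WT adipose tissue and 9.43 (SE 2.37, limma adjusted p of 0.135) between KO adipose tissue and KO spleen. Apoe, the lipid carrier apolipoprotein E, was at 1.62, 30.5, 31 and 3828 TPM in adipose tissue and at 84.2, 71.9, 5.16 and 34.8 TPM in spleen. In adipose tissue WT 3 and KO 2 were all but equal, and in spleen both KO libraries lay below both WT libraries (−2.41, SE 2.04, limma adjusted p of 1).

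The 3 chemokines of the group showed the same separation of KO adipose 3. Pf4, a platelet and macrophage chemokine, was at 1.01, 10.5, 6.63 and 1848 TPM in adipose tissue and between 0.173 and 11.7 TPM in spleen. Ccl6 was at 0, 4.5, 0.67 and 1551 TPM in adipose tissue and between 0 and 8.77 TPM in spleen. Ccl9, another chemokine of myeloid cells, was at 0, 0.945, 1.97 and 239.9 TPM in adipose tissue and at most 0.0992 TPM in spleen. For Ccl9 alone among them did KO adipose 2 lie above both WT adipose libraries. Like Trem2 it reached 1 TPM in the KO adipose group alone.

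MHC class II genes, which encode the alpha and beta chains that present peptides to CD4+ T cells, and Cd74, the invariant chain that guides them, were among the genes of the set with the highest levels in spleen, beside Ctss. H2-Ab1 was at 53.2, 6.22, 33 and 1564 TPM in adipose tissue and at 617, 184, 181 and 61.4 TPM in spleen. Cd74 was at 161, 54.4, 25.7 and 3155 TPM in adipose tissue and at 1052, 501, 338 and 357 TPM in spleen. H2-Aa was at 26.8, 5.39, 9.77 and 768 TPM in adipose tissue and at 368, 101, 172 and 26 TPM in spleen, and H2-Eb1 ran from 2.56 TPM in WT adipose 3 to 829 TPM in KO adipose 3. Both WT adipose libraries lay below both WT spleen libraries for all 4 genes, and WT adipose 3 was the lowest library for all but Cd74. In adipose tissue H2-Ab1 differed between KO and WT by 3.54 (SE 1.67, limma adjusted p of 0.74) and in spleen by −1.67 (SE 1.67, limma adjusted p of 1). Between tissues in WT the difference was −4.10 (SE 1.67, limma adjusted p of 0.358).

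The class II genes and the C1q chains did not keep 1 ratio across libraries. The 4 class II genes summed to 18.3, 9.67, 516 and 7.41 times the sum of the 3 C1q chains in spleen, and to 198, 269, 11.7 and 1.23 times in adipose tissue. KO spleen 2 therefore had 808 TPM of class II genes with 1.57 TPM of C1q chains, against 474 and 64 TPM in KO spleen 3. The B cell genes Cd79a and Ms4a1, parts of the B cell receptor and CD20, were looked at after the values of class II were seen. Cd79a was at 204, 10.1, 160 and 20.2 TPM in spleen and at 15.8, 0, 0 and 0.679 TPM in adipose tissue. Ms4a1 was at 25.4, 2.07, 15.5 and 2.5 TPM in spleen and at 3.53, 0.0251, 0 and 0.148 TPM in adipose tissue. Both B cell genes were higher in number 2 than in number 3 of each spleen genotype, as were the 3 class II chains, and low in KO adipose 3. The list of B cell markers as a whole summed to between 1335 and 2236 TPM in spleen and between 586 and 1339 TPM in adipose tissue, most of it from Ighm, the heavy chain of IgM. Ighm alone of that list was not higher in number 2 of both spleen genotypes, at 944 and 1424 TPM in KO spleen 2 and 3. Ebf1 and Blnk, also of that list, were highest of adipose tissue in KO adipose 3, at 15 and 6.92 TPM. The part of B cell RNA in the class II levels was not tested.

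**Figure D3:**
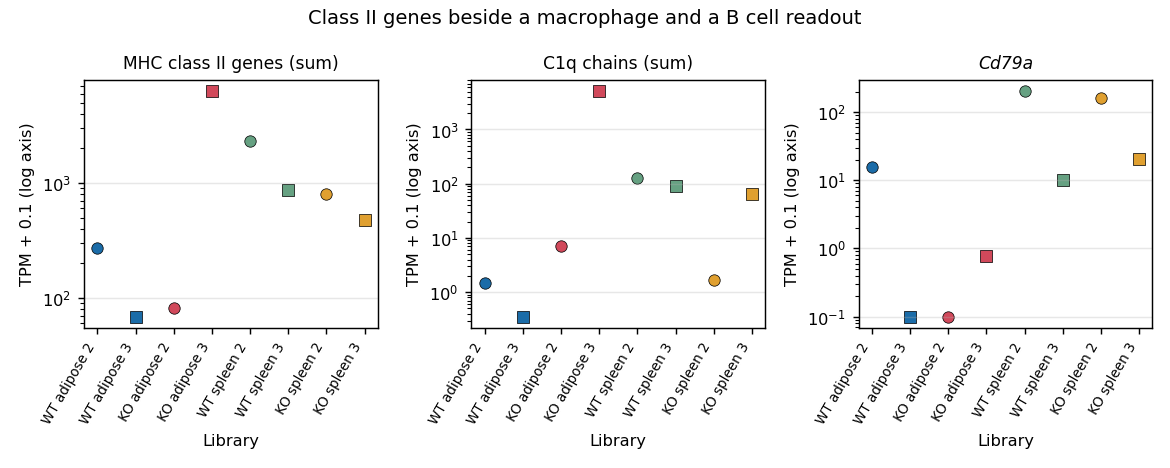
Summed levels of the 4 class II genes and of the 3 C1q chains, and the level of Cd79a (TPM + 0.1, log axis), in each library (1 point each). In spleen, class II and Cd79a are higher in libraries 2 than in libraries 3 of each genotype, while C1q is the lowest of spleen in KO spleen 2. In KO adipose 3, C1q and class II are high and Cd79a is at 0.679 TPM.

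KO adipose 3 was set beside WT spleen to see whether its profile was that of the spleen at a higher level. The ratio to WT spleen 2 and to WT spleen 3 was 2.09 and 7.58 for H2-Aa, 2.54 and 8.48 for H2-Ab1 and 3 and 6.29 for Cd74. It was 8.35 and 14.7 for Tyrobp, 15.8 and 18.3 for Cd68 and 38.5 and 48.5 for C1qb. The ratio of Lyz2 depended on the spleen library, at 11.2 and 191, so its place among these genes was not fixed. Ratios were higher again for the chemokines, with 177 and 878 for Ccl6 and 628 and 214 for Pf4. Folr2 had ratios of 23872 and 2797 to spleen levels close to 0, and Retnla a ratio of 6729 to WT spleen 2, being listed at 0 in WT spleen 3. The set thus differed in proportions as well as in sum between these libraries, and only Ctss (0.619 and 0.846) and Gpnmb (0.246 and 0.0168) had a ratio to the spleen libraries below 1. Spic, a transcription factor of red pulp macrophages picked after its values were seen, ran the other way, at 7.96 and 6.7 TPM in WT spleen 2 and 3 and 1.94 TPM in KO adipose 3. These ratios compare single libraries and have no replicate check.

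**Figure D4:**
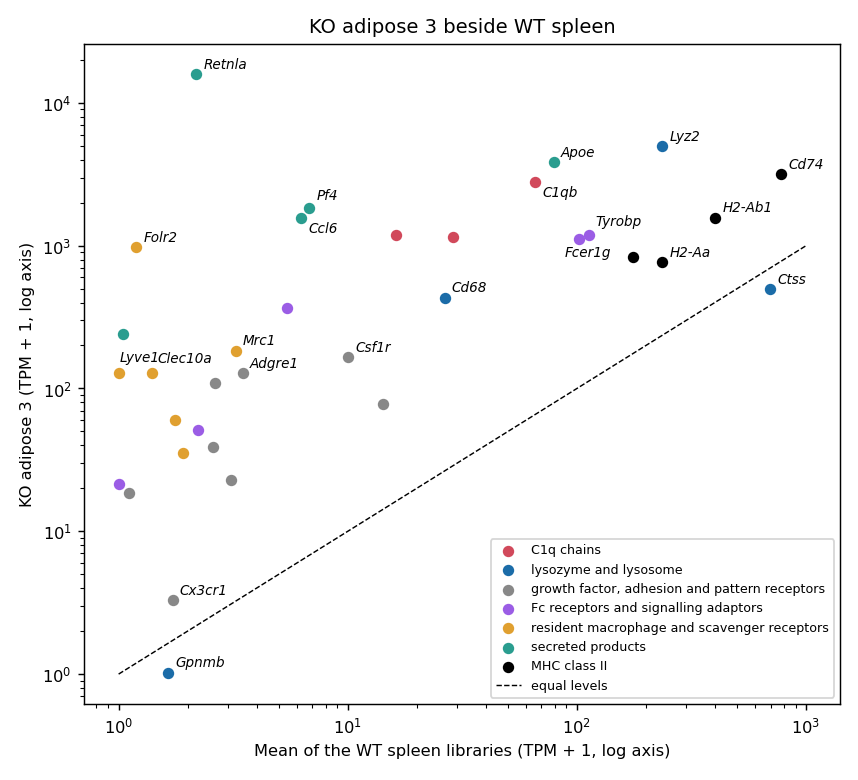
Level of each of the 35 genes in KO adipose 3 (vertical axis) against the mean of the 2 WT spleen libraries (horizontal axis), both as TPM + 1 on log axes, coloured by role. All but Ctss and Gpnmb lie above the dashed line of equal levels, the class II genes and Cx3cr1 nearest to it and Retnla and Folr2 far above it.

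Between KO and WT adipose tissue, none of the 31 tested genes passed an adjusted p of 0.05 by limma, and 12 had an unadjusted p under 0.05. Among all 13376 tested genes, 0.277% were called higher and 0.00748% lower. The median difference of the 31 was 3.54, with 29 positive, beside a median of −0.27 over all tested genes. Both KO libraries lay above both WT libraries for 11 of them (7.66% of all tested genes): C1qa, C1qb, Ctss, Csf1r, Cd14, Cx3cr1, Aif1, Trem2, Apoe, Ccl9 and Retnla. Both lay below for 1, Gpnmb, beside 27.5% of all tested genes. Of the 11, Trem2 and Ccl9 reached 1 TPM in the KO adipose group alone and entered the test through it, so their place in the count is no separate result. The same holds wherever these genes are counted as higher in KO adipose tissue. It also holds there for Fcgr1, Cd163 and Timd4, which passed the filter only with KO adipose 3. The median rested on 1 library. Without KO adipose 3 it was 0, with 15 positive, 12 negative, 4 without a difference (listed at 0 in the 3 libraries left) and none called (limma, all-gene median −0.40), and without KO adipose 2 it was 6.36 with 30 positive and 20 called, where 2.46% of all tested genes were called higher. That fit has 1 KO adipose library, which is assumed to vary like the other groups. Lyz2 went from −1.17 without KO adipose 3 to 10.17 without KO adipose 2, C1qb from 2.24 to 10.92 and Fcer1g from −6.06 to 4.06. The other library of the group thus did not share the high levels of KO adipose 3.

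**Figure D5:**
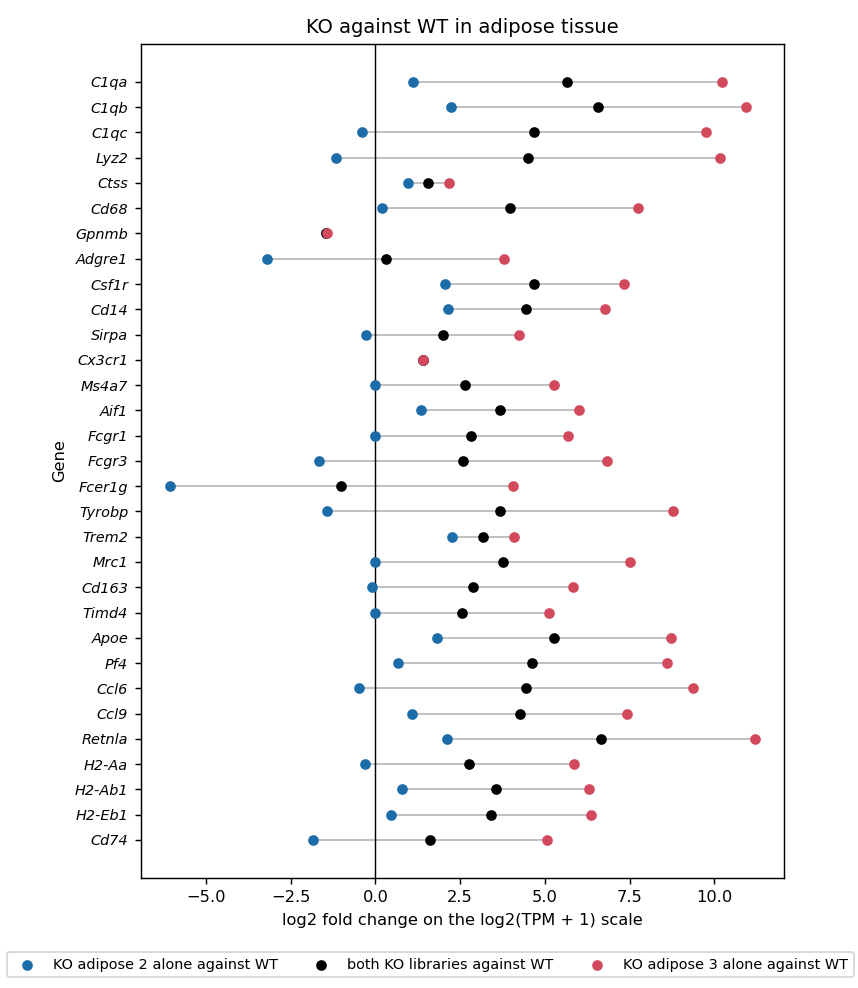
Difference between KO and WT adipose tissue for the 31 tested genes on the log2(TPM + 1) scale, with both KO libraries (black), KO adipose 2 alone (blue) and KO adipose 3 alone (red) against the 2 WT libraries. The median is 3.54 with both, 0 with KO adipose 2 alone and 6.36 with KO adipose 3 alone, and the points coincide only for Gpnmb and Cx3cr1.

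Markers of other cell types moved with KO adipose 3 as well. The adipocyte list summed to 4.64, 2118, 54.2 and 14370 TPM in adipose tissue and to at most 5.85 TPM in spleen. Most of it in WT adipose 3 and KO adipose 3 came from Fabp4 (3.11, 1991, 14.2 and 13591 TPM). Adipoq was at 0, 9.46, 0.029 and 112 TPM. Plin1 alone of that list was not highest of adipose tissue in KO adipose 3, at 0, 2.84, 0 and 1.63 TPM. The fibroblast and mesothelial list summed to 0.328, 4.76, 729.7 and 3481 TPM in adipose tissue and to at most 0.454 TPM in spleen. Most of it in KO adipose 3 came from Dcn (2493 TPM) and Igfbp6 (746 TPM). Col1a1, Col1a2, Col3a1 and Pdgfra were at 5.39, 12.6, 21.3 and 0.0339 TPM there. In KO against WT adipose tissue, 4 of the 6 tested genes of that list (Dcn, Igfbp6, Msln and Upk3b) were called higher, beside 0.277% of all tested genes. Of these, Igfbp6, Msln and Upk3b reached 1 TPM in the KO adipose group alone and entered the test through it. The endothelial list summed to 39.4, 127, 13.3 and 957 TPM in adipose tissue. The T cell list moved the other way, at 8983, 7298, 9494 and 3628 TPM. The Treg list summed to 1945, 1473, 1771 and 987 TPM, most of it from Tnfrsf18 (1012, 943, 1352 and 558 TPM). Tnfrsf18 alone of that list was lowest of adipose tissue in KO adipose 3. Foxp3 was at 126, 93.5, 7.4 and 98.4 TPM and Ctla4 at 393, 110, 267 and 119 TPM. The dendritic cell list summed to 760, 363, 487 and 646 TPM, most of it from Ccr7 and Bst2, which T cells also express. Some other genes of that list, picked after their values were seen, were highest in KO adipose 3: Cd209a at 0, 2.15, 0 and 168 TPM, Siglech at 0, 0, 0 and 6.95 TPM and Zbtb46 at 0.432, 1.12, 0 and 6.64 TPM. Others of the list did not share this. Xcr1 was at 3.99, 9.81, 8.83 and 2.97 TPM, Flt3 at 0.0109, 1, 0.0052 and 0.343 TPM and Clec9a at 0, 1.39, 0 and 1.41 TPM. Itgax was listed at 0 in every adipose library. The monocyte and neutrophil list summed to 394, 786, 249 and 204 TPM. Most of it came from the chemokine receptor Ccr2 (294, 783, 172 and 192 TPM), which some Tregs also express. Ccr2 was called higher in KO adipose tissue than in KO spleen (5.44, SE 0.91, limma adjusted p of 0.0385). Neither Ccr2 nor Ly6c2 (99.9, 3.01, 76.6 and 4.16 TPM) was lowest of adipose tissue in KO adipose 3. Csf3r, picked after its values were seen, was highest there (0, 0.0215, 0 and 6.49 TPM). S100a8 and S100a9 were listed at 0 in every adipose library. None of the genes of the T cell, Treg, dendritic cell, adipocyte, endothelial, B cell or erythroid lists was called in any of the 5 contrasts by limma, with between 0 and 5 at an unadjusted p under 0.05 in each. The part of these cells in the level of the macrophage genes was not tested, and in bulk libraries fewer cells of a type and less RNA per cell cannot be told apart.

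In spleen, none of the 31 tested genes passed the threshold between KO and WT by limma, none had an unadjusted p under 0.05, and 0% of all tested genes were called in either direction (64 genes had an unadjusted p under 0.05). All 31 differences were negative, with a median of −1.06 beside −0.12 over all tested genes. For 18 of the 31 both KO libraries lay below both WT libraries (13.9% of all tested genes), among them the 3 C1q chains, Lyz2, Cd68, Csf1r, Cd14, Tyrobp, Fcer1g, Apoe, H2-Ab1 and Cd74. For none did both lie above (5.93%). The 2 KO libraries were far apart, with 12 of the 35 genes listed at 0 in KO spleen 2 and C1qb at 0.497 against 39.8 TPM in KO spleen 3, which is close to the WT levels. KO spleen 2 is also the spleen library with Foxp3 at 8.27 TPM. The sum of the 35 genes was nonetheless lowest of spleen in KO spleen 3, at 1259 TPM against 1580 TPM in KO spleen 2. The erythroid list summed to 15709, 46666, 1186 and 107608 TPM in spleen, lowest in KO spleen 2. In adipose tissue it summed to 38.4, 3798, 34706 and 65648 TPM. Its part in the result was not tested.

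Between adipose tissue and spleen in WT, none of the 31 tested genes passed the threshold by limma and 3 had an unadjusted p under 0.05, beside 0.135% of all tested genes called higher and 0.0299% called lower in adipose tissue. The median difference was −1.35, with 26 of 31 negative, beside 0.32 over all tested genes. Both WT adipose libraries lay below both WT spleen libraries for 21 of the 31 (15.1% of all tested genes), including all C1q and class II genes, Lyz2, Cd68, Ctss, Csf1r, Tyrobp and Apoe. Both lay above for 2, Retnla and Adgre1 (37.8%). C1qb differed by −5.51 (SE 2.48, limma adjusted p of 0.393) and Tyrobp by −5.33 (SE 2.59, limma adjusted p of 0.424). In a fit of the 4 WT libraries alone with the filter applied to them, which was added after the data were seen, 7 genes were called lower in adipose tissue (C1qa, C1qb, C1qc, Tyrobp, Cd68, Aif1 and Csf1r), with C1qb at −5.51 (SE 0.49, limma adjusted p of 0.00695), beside 0.54% of all genes tested there. With the genes of the full fit tested in those libraries, none was called by limma.

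Between adipose tissue and spleen in KO, none of the 31 tested genes passed by limma and 4 had an unadjusted p under 0.05, beside 0.927% of all tested genes called higher and 0.15% called lower. The median difference was 2.60, with 27 of 31 positive, beside 0.16 over all tested genes. Both KO adipose libraries lay above both KO spleen libraries for 5 of the 31 (22.1% of all tested genes): Cd14, Cx3cr1, Trem2, Ccl9 and Retnla. Both lay below for Ctss (14.6%). Trem2 and Ccl9 entered the test through the KO adipose group alone. Without KO adipose 3 the differences of Lyz2, C1qb, Adgre1, Mrc1 and H2-Ab1 were of the opposite sign, and without KO adipose 2 the number called higher was 22, beside 4.52% of all tested genes. This comparison shares its adipose libraries with the genotype comparison in adipose tissue, so the values of the 2 are not independent.

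The genotype by tissue interaction, which asks whether the KO against WT difference is the same in both tissues, called none of the 31 tested genes by limma, and 7 had an unadjusted p under 0.05. It called 0.0299% of all tested genes higher in adipose tissue and 0% lower. The median was 4.73, with 30 of 31 positive, beside −0.17 over all tested genes. Trem2 had the lowest adjusted p of the set, at 0.99 by limma (3.18, SE 0.96). The largest difference of a marker gene was that of C1qb, at 9.64 (SE 3.50, limma adjusted p of 1).

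Calls also differed when libraries were left out. Without KO adipose 2, which leaves KO adipose 3 as the 1 library of its group, the interaction called 18 of the 31 higher, beside 1.31% of all tested genes. When KO spleen 2 was left out as well, 16 were called higher between KO and WT adipose tissue (1.17%). In fits with the filter reapplied to the libraries kept, the fit without KO adipose 2 called 24 higher between KO and WT adipose tissue (1.87%), 23 higher between tissues in KO (4.72%), 18 in the interaction (0.587%) and 5 lower between tissues in WT (0.389%). The 5 were Ctss, Tyrobp, Cd68, Aif1 and Cd74, which were also the 5 called without KO adipose 3 (0.427%), where Tyrobp and Cd74 were in addition called lower between tissues in KO (0.348%). Without both KO libraries numbered 2, such fits called 20 higher between KO and WT adipose tissue (0.882%), 11 higher between tissues in KO (0.453%), 8 in the interaction (0.146%) and 7 lower between tissues in WT (0.338%). Those 8 were the 3 C1q chains, Mrc1, Tyrobp, Cd68, Retnla and Csf1r.

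Other genes of macrophages, of the class II pathway and of macrophage gene regulation were taken from separate lists. Of 30 further macrophage genes tested, 24 were positive between KO and WT adipose tissue (median 1.10) and 25 negative in spleen (median −0.28), and none was called by limma in either. Between KO adipose tissue and KO spleen, 2 of the 30 were called higher, beside 0.927% of all tested genes. Lgals3, the lectin galectin 3, was at 270, 205, 149 and 208 TPM in adipose tissue and at 36.8, 15.5, 7.68 and 22 TPM in spleen, a difference of 3.64 (SE 0.56, limma adjusted p of 0.0319). Ctsd, the lysosomal protease cathepsin D, was at 499, 367, 487 and 451 TPM in adipose tissue and at 147, 132, 77.8 and 148 TPM in spleen, a difference of 2.12 (SE 0.37, limma adjusted p of 0.0432). Both were at like levels in all 4 adipose libraries, those with C1q chains near 0 included.

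Of 9 regulators tested, 6 were positive in adipose tissue (median 0.74) and 7 negative in spleen (median −0.58), with none called by limma and 2 and 0 at an unadjusted p under 0.05. Id3, an inhibitor of E proteins like Id2, was at 25.1, 22.3, 116 and 323 TPM in adipose tissue and at 322, 276, 478 and 245 TPM in spleen. Maf, a transcription factor of macrophages and of T cells, was at 33.4, 30.6, 22.2 and 44.3 TPM in adipose tissue and between 16.2 and 48.9 TPM in spleen. Spi1, which encodes PU.1, was named after its values were seen. Spi1 was at 1.35, 0, 0 and 54.6 TPM in adipose tissue and at most 4.17 TPM in spleen. It was thus highest in the library where the C1q chains were highest.

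Of 13 further genes of the class II pathway tested, 9 were positive in adipose tissue (median 0.50) and 11 negative in spleen (median −0.46), with none called. H2-DMa, part of the complex that loads peptides on class II molecules, was at 120, 33.7, 115 and 149 TPM in adipose tissue and at 181, 103, 133 and 93.8 TPM in spleen. Ifi30, a reductase that unfolds antigens in lysosomes, was at 46.9, 30.5, 77.7 and 134 TPM in adipose tissue and at 53.5, 52.1, 89 and 58.4 TPM in spleen. Both spanned a narrower range between libraries than the class II chains. Other genes of the list, picked after their values were seen, varied in adipose tissue. H2-DMb1 was at 2.93, 6.91, 2.86 and 75.7 TPM and Cd40 at 1.51, 0.0228, 0 and 21.5 TPM, highest in KO adipose 3. H2-DMb2 (11.8, 1, 0.68 and 3.47 TPM) and H2-Oa (19.3, 10, 18.3 and 8.51 TPM) were not.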

How the data were processed

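RNA of sorted CD4+ CD25+ T cells from 8 libraries was measured by sequencing. The deposited table holds TPM, identified from the values, as each column sums to 1000000 TPM. Per the submitters' processing notes the build was mm9. Aligner, counting tool and gene models were not given in the sources used here. Since TPM does not preserve read numbers, the depth is unknown, no counting interval is given, and a 0 is described as listed at 0.

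Differences were tested with limma 3.58.1 (R 4.3.3, trend, two-sided) on log2(TPM + 1), which understates changes of low genes. A gene entered if 2 or more libraries reached 1 TPM (13376 of 45232), in 1 fit of 4 groups with 4 residual degrees of freedom. Benjamini-Hochberg adjustment covered all of these genes, with a threshold of 0.05. The spread was shared by the groups, although the SD of the log2 difference between libraries ran from 0.696 in WT spleen to 1.49 in KO adipose tissue. The code was tested on simulated data.

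The header calls the numbers 2 and 3 experiments, and the replicate 3 minus 2 differences correlated at 0.128 to 0.382 across genes over the 6 pairs of groups. A fit with that number as a block is given where it changes a call. The alternatives were other pseudocounts (0.1 and 5 TPM), filters (none and 5 TPM), quantile normalization, fewer libraries, and each library left out.

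The 35 genes and all lists were chosen with earlier results of these data known. Fold changes are given for genes past the threshold, for Lyz2, C1qb and Adgre1, and for the gene of smallest p in each role, with exceptions named as chosen after their values were seen (these include Lyz1, Fcgr2b and the value of Fcer1g without a library). Other lists name genes past the threshold and otherwise the 2 highest. Promoter windows come from RefSeq (GRCm38.p6), whose build differs from mm9, and were matched by symbol.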

Additional observations from a re-analysis of the deposited data

How the results depend on the processing

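The limits are the 2 libraries per group, an unknown depth, and 1 library, KO adipose 3, that sets most adipose values of the 35 genes. Counts here are genes called by limma at an adjusted p of 0.05. Fits on fewer libraries kept the 13376 genes unless the filter is said to be reapplied, an alternative chosen after seeing the data.

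Over all genes, the 38 called between KO and WT adipose tissue were 13 with a pseudocount of 0.1 TPM, 18 with a filter at 5 TPM, 72 with quantile normalization, 0 with only the libraries compared (742 at an unadjusted p under 0.05), 0 in the same with the filter reapplied (679 at an unadjusted p under 0.05), and 162 without KO adipose 2 and KO spleen 2 (129 reapplied). They ranged from 6 (without WT adipose 3) to 343 (without KO adipose 2) with 1 library left out. In spleen the 0 called (64 at an unadjusted p under 0.05) were 2 with only the libraries compared and the filter reapplied, and 0 to 0 with 1 library left out. The 22 called between tissues in WT were 0 with no filter (1961 at an unadjusted p under 0.05), 59 at 5 TPM, 78 with the replicate block, 0 with only the libraries compared (2543 at an unadjusted p under 0.05; 217 reapplied), 0 without KO adipose 2 and KO spleen 2 (2549 at an unadjusted p under 0.05; 153 reapplied), and 0 (without WT spleen 2) to 175 (without KO adipose 3, reapplied) with 1 left out. The 144 called between tissues in KO were 70 and 89 with pseudocounts of 0.1 and 5 TPM, 63 with no filter, 231 with quantile normalization, 236 with the replicate block, 12 with only the libraries compared (46 reapplied), 0 without KO adipose 2 and KO spleen 2 (1627 at an unadjusted p under 0.05; 71 reapplied), and 1 (without KO spleen 2) to 710 (without KO adipose 2, reapplied) with 1 left out. The 4 called in the interaction were 0 with a pseudocount of 0.1 TPM, with no filter, at 5 TPM, with the replicate block and without KO adipose 2 and KO spleen 2 (408, 661, 246, 661 and 1083 at an unadjusted p under 0.05), 21 in the latter reapplied, 10 with quantile normalization, and 0 to 177 (without KO adipose 2) with 1 left out.

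Of the macrophage and antigen-presenting genes, 0 were called as reported in each of the 5 contrasts. Between KO and WT adipose tissue the count ranged from 0 to 24 with 1 library left out (20 without KO adipose 2, 24 reapplied) and was 16 without KO adipose 2 and KO spleen 2 (20 reapplied). In spleen it was 0 under every alternative, by limma. Between tissues in WT it ranged from 0 to 5 with 1 library left out (5 without either KO adipose library, reapplied), and was 7 with only the libraries compared or without KO adipose 2 and KO spleen 2, both reapplied. Between tissues in KO it was 1 with quantile normalization and 1 with the replicate block (Trem2 in both), 0 to 23 with 1 left out (22 without KO adipose 2), and 11 without KO adipose 2 and KO spleen 2, reapplied. Without KO adipose 3 and reapplied, 2 were called, Tyrobp (−4.69) and Cd74 (−3.71), both lower in adipose tissue. In the interaction it ranged from 0 to 18 (without KO adipose 2) and was 8 without KO adipose 2 and KO spleen 2, reapplied. The block changed no other call of the set.

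With 1 library left out, 9 of 352 single-gene values changed sign, 8 of them without KO adipose 3. Lyz2 ranged from −1.17 to 10.17 and Adgre1 from −3.19 to 3.81 (−0.59 without WT adipose 2) between KO and WT adipose tissue. Between tissues in KO, Lyz2 ranged from −2.37 to 8.97, C1qb from −0.20 to 8.48, Adgre1 from −0.81 to 6.19, Mrc1 from −0.39 to 7.13 and H2-Ab1 from −1.64 to 3.88. Adgre1 ranged from −2.21 to 4.79 in the interaction. Under the other alternatives 1 of 333 changed sign, Adgre1 between KO and WT adipose tissue at −1.17 with a pseudocount of 0.1 TPM. The cause of these changes was not tested.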

Other observations

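Beyond the genes above, KO adipose 3 held high levels of further chemokines and receptors of myeloid cells, of which the following, apart from Ccl8 and Ctsb, were picked after their values were seen. Ccl8, a chemokine that attracts monocytes and T cells, was at 0, 4.41, 0 and 4464 TPM in adipose tissue (WT 2, WT 3, KO 2 and KO 3) and at 0.173 TPM or less in spleen. Ccl7, a related chemokine, was at 489 TPM in KO adipose 3, and C5ar1, the receptor for the complement fragment C5a, at 152 TPM. Ctsb, the lysosomal protease cathepsin B, was at 343, 236, 288 and 1157 TPM in adipose tissue and between 119 and 263 TPM in spleen. Of these, Ctsb alone was above 5 TPM in the other adipose libraries. Not all of the further macrophage genes were highest in KO adipose 3. Cxcl2 was at 3.97, 135, 6.54 and 34.8 TPM in adipose tissue, Arg1 at 16.4, 247, 26.1 and 133 TPM and Tnf at 62.1, 64.6, 75.4 and 43.7 TPM. Vsig4, Il1b and Chil3 were listed at 0 in KO adipose 3.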
